A study of Mus musculus with 4 samples.

Results

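Mmp14 and the genes beside it on mouse chromosome 14 were examined in mouse small intestinal (SI) organoids with and without added miR-181a-5p. The set was a list of 9 genes around Mmp14, of which 8 were found by symbol among the 55487 genes of the tables and 1 was not analysed here. In chromosome order the 8 were 5330426L24Rik, Oxa1l, Mrpl52, Mmp14, Lrp10, Rem2, Prmt5 and Haus4. The list was selected on their position and on the fold changes of Mmp14 and 5330426L24Rik in this comparison, both lower with the mimic, so for the 8 genes the difference between the groups is described and not tested. SI organoids are epithelial cultures grown from intestinal crypts, which hold stem cells and their differentiated progeny. One group carried a lentivirus for a miRNA mimic control (replicates 1 and 2) and the other a lentivirus for a miR-181a-5p mimic (replicates 3 and 4), and both were selected in puromycin at 2 μg/ml. Both groups therefore share transduction and puromycin, and no untransduced organoids were included. The strain, sex and age of the donor mice, and whether each library had its own transduction, were not given in the sources used here, so the spread between libraries may be technical.

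Mmp14 encodes MT1-MMP, a matrix metalloproteinase anchored in the plasma membrane. It cleaves fibrillar collagen and other matrix proteins at the cell surface and activates the secreted proenzyme of MMP2. The protease furin removes its inhibitory prodomain, and the tissue inhibitors TIMP2 and TIMP3 block it. In the intestine it is best known from stromal and endothelial cells. The neighbours have unrelated functions. Oxa1l encodes an insertase of the inner mitochondrial membrane, Mrpl52 a protein of the large mitochondrial ribosomal subunit, and Lrp10 a receptor of the low-density lipoprotein receptor family. Rem2 encodes a small GTPase of the RGK family that inhibits voltage-gated calcium channels. Prmt5 encodes the arginine methyltransferase that modifies Sm proteins of the spliceosome, and Haus4 a subunit of augmin, the complex that nucleates microtubules along existing spindle microtubules. 5330426L24Rik is annotated as a long intergenic non-coding RNA, a transcript class with no protein product.

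A miRNA lowers mRNAs mainly through pairing of its seed, bases 2 to 8, with the 3′ UTR. The mature miRNA and the matches to its seed in the annotated transcripts of the 8 genes are shown because the mimic supplies this seed. The miRNA sequence is from RefSeq (GRCm38.p6) with the seed in capitals, and the other stretches are from GENCODE transcripts (GRCm38) with the 7 bases that pair with the seed, TGAATGT, in capitals.
miR-181a-5p: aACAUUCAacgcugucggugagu
Mmp14-201, 3′ UTR, plus strand, chr14:54440933-54440939: tcagccctagtTGAATGTtgtcaaggctc
Oxa1l, retained intron transcript, plus strand, chr14:54361562-54361568: gcgggagacagTGAATGTgtagcagagtt
Prmt5, retained intron transcript, minus strand, chr14:54513944-54513950: atgaataaaaaTGAATGTaaatatt

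The motif was searched on the transcribed strand of each transcript, and 3 of the 42 transcripts of the 8 genes held it. In Mmp14 it lay at base 261 of the 593-base 3′ UTR of the transcript Mmp14-201. The longer 3′ UTR of Mmp14-206, of 1328 bases, held none. Of 1442 genes whose longest 3′ UTR was 0.8 to 1.25 times the length of that of Mmp14-201, 6.38% held the motif, and of 2137 genes near the length of that of Mmp14-206 the share was 16.5%. The gene-level counts do not tell which of these transcripts the organoids made. The single transcript of 5330426L24Rik, 2175 bases long, held no match. Neither did any annotated transcript of Mrpl52, Lrp10, Rem2 or Haus4, and in Oxa1l and Prmt5 the matches were outside the protein-coding transcripts. Matches to fewer bases of the seed were not searched. A match is a run of letters and not a measured site of binding.

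The 8 genes spanned 205 kb (GRCm38). Mmp14 is a protein-coding gene on the plus strand at chr14:54431612-54445364. The 3′ end of Mrpl52, at chr14:54426909-54429756 on the same strand, lay 1855 bp before it, so that these genes start 4.70 kb apart. 5330426L24Rik is a single exon on the minus strand at chr14:54349462-54351636, and the starts of both genes lay 80.0 kb apart. It stood 9.20 kb from Oxa1l (chr14:54360834-54369673, plus strand), with which it is divergent. Beyond Mmp14 followed Lrp10 (chr14:54464137-54471497) and Rem2 (chr14:54476100-54480431) on the plus strand, and then Prmt5 (chr14:54507187-54517525) and Haus4 (chr14:54541785-54554616) on the minus strand. Oxa1l, Slc7a7 and Mrpl52 thus lie between 5330426L24Rik and Mmp14.

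The libraries held 31104884 to 38111731 expected counts, the estimated reads per gene deposited by the authors, and 17155 genes passed the filter on low counts. All 8 genes passed it. Replicates differed from each other by more than sampling noise, with chi-square over its degrees of freedom at 34.0 for the control pair and 17.9 for the mimic pair, so neither pair looked like 1 library deposited again. This does not show that they were independent cultures. The summed TPM (a level scaled for transcript length and library size) of 8 epithelial markers was 3019 to 3577 in the 4 libraries. Single markers in this sum differed. Krt18 was at 425.65 and 312.78 TPM in the control libraries against 217.09 and 294.5 in the mimic libraries. Cdx2 was at 74.55 and 74.86 against 92.43 and 102.76. In scaled counts 2 of the 8, Krt18 and Cdh1, had both mimic libraries below both controls, and 1, Cdx2, had both above. Summed over 10 mesenchymal markers it was 4.46 and 2.76 in the control libraries against 4.55 and 7.45 in the mimic libraries, over 5 endothelial markers 0.270 and 0.160 against 0.160 and 0.430, and over 6 leukocyte markers 2.91 and 3.09 against 2.89 and 3.35. The defining mesenchymal markers Col1a2, Col3a1, Dcn and Lum and the endothelial markers Cdh5, Kdr and Emcn were at 0 in every library. Most of the mesenchymal sum was Vim, at 3.74 and 2.24 TPM in the control libraries and at 4.02 and 6.82 with the mimic. Pdgfra, a fibroblast receptor that did not pass the filter, had 17 and 7 counts in the control libraries against 2 and 0 in the mimic libraries, lower in both as Mmp14 was. The mesenchymal markers Pdgfrb and Acta2 did pass it, and their scaled groups overlapped. Pdgfrb had 61 and 29 counts in the control libraries against 37 and 50 in the mimic libraries, and Acta2 13 and 11 against 11 and 10. Of the leukocyte markers, Itgam had 55 and 75.46 counts in the control libraries against 103 and 153 in the mimic libraries. Cd68 went the other way, with 72 and 58 against 51 and 55, as did Lyz2, with 18.42 and 10.25 against 7.17 and 8.19. Whether these markers had a part in the results was not tested. In bulk RNA, fewer cells of a type and less RNA per cell cannot be told apart.

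Mmp14 was measured at 983 and 736 counts in the mimic control libraries and at 11 and 24 counts in the miR-181a-5p mimic libraries. As CPM, counts scaled to library size with TMM factors, this was 24.7 ± 1.33 (SD, n = 2) against 0.512 ± 0.228 (n = 2). The groups were far apart, and the level in the controls was 48.2 times that with the mimic. The log2 fold change, mimic against control throughout, was -5.56 with a standard error (SE) of 0.25, the 9th lowest of the 17155 genes. The transcript was still detected in both mimic libraries. On the TPM scale its level was 15.59 and 13.39 in the control libraries against 0.17 and 0.59 in the mimic libraries, so the mimic libraries differed from each other by more in TPM than in counts. TPM divided by CPM was 0.609 and 0.564 in the control libraries against 0.484 and 0.876 in the mimic libraries, and the fold changes given here come from the counts. None of the 6077 stretches of 100 bases in Mmp14 transcripts, the length of the reads, occurred in another gene.

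5330426L24Rik, the non-coding RNA, had 479 and 344 counts in the control libraries against 54 and 64 in the mimic libraries. Its CPM was 11.8 ± 0.984 (SD, n = 2) in the controls and 1.76 ± 0.0520 (n = 2) with the mimic, a ratio of 6.70. Both mimic libraries lay far below both controls, and the mimic libraries were close to each other. The log2 fold change was -2.74 (SE 0.19), the 52nd lowest of all tested genes and less far from 0 than that of Mmp14. No stretch of 100 bases in its transcript occurred in another gene.

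With an adjusted p under 0.05 and a fold change of at least 2 (edgeR's quasi-likelihood test, Benjamini-Hochberg adjustment), 1.47% of the 17155 genes were called lower with the mimic and 0.589% higher. Mmp14 and 5330426L24Rik, on which the list was chosen, were the 2 of the 8 genes called lower, and 0 of the 8 were called higher. Of all genes tested, 29.5% had both mimic libraries below both controls and 28.9% had both above. Among the 8 genes the counts were 3 and 3, and in the remaining 2 the groups overlapped. Since the list was chosen with this comparison in view, nothing is read from these shares for the listed genes. The plot of levels by library shows the separation of Mmp14 and 5330426L24Rik beside the smaller differences of the 6 others, that of Lrp10 being the largest.

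**Figure D1:**
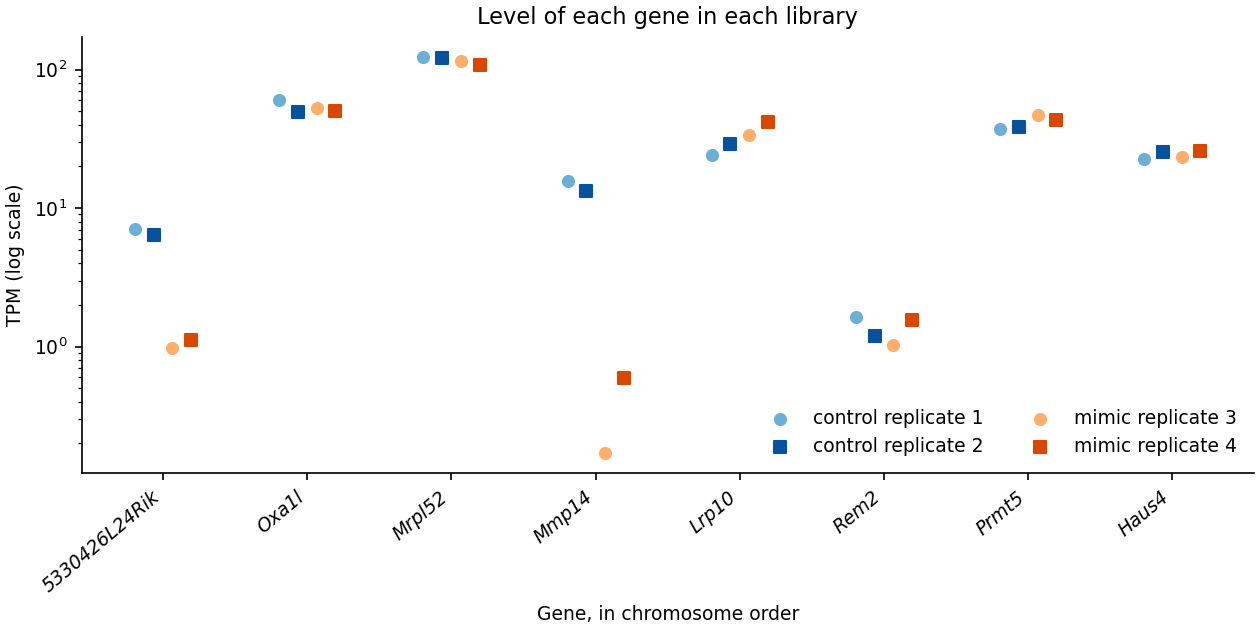
Level of each of the 8 genes in TPM on a log axis, in chromosome order, with 1 point per library (circles and squares are the first and the second library of a group, blue for mimic control and orange for miR-181a-5p mimic). Mmp14 went from 15.59 and 13.39 to 0.17 and 0.59 TPM and 5330426L24Rik from 7.08 and 6.38 to 0.98 and 1.12. The points of the other genes lay closer together, with Lrp10 going from 24.31 and 29.16 to 33.61 and 41.73 TPM.

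The 6 other neighbours stood within 0.43 of 0 on the log2 scale. Mrpl52, whose end lies nearest to the Mmp14 start, had 1334 and 1042 counts in the control libraries against 1001 and 964 in the mimic libraries. After scaling both mimic libraries were below both controls, and the log2 fold change was -0.21 (SE 0.12). The 4.70 kb between the starts of these genes on one strand thus separated a log2 fold change of -0.21 from one of -5.56.

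Oxa1l, the mitochondrial insertase gene between the non-coding RNA and Mrpl52, had 3283.92 and 2262.75 counts in the control libraries against 2467.43 and 2557.91 in the mimic libraries. The scaled groups overlapped, with a log2 fold change of -0.08 (SE 0.11). Its 3′ end overlaps that of Slc7a7 on the other strand by 232 bp. The strand setting of the authors' counting was not given in the sources used here, and 2.94% of the 100-base stretches of Oxa1l occurred in Slc7a7, so reads from the shared part may have been split.

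Lrp10, the first protein-coding gene after Mmp14, had 2582.8 and 2391.45 counts in the control libraries against 2959.08 and 3579.52 in the mimic libraries. Both mimic libraries were above both controls, and the log2 fold change of 0.43 (SE 0.11) was the largest upward value of the 8 genes. It overlaps the antisense gene Gm10366 by 606 bp, and 8.32% of its 100-base stretches occurred there. Gm10366 had 19.55 to 26.2 counts per library, small beside those of Lrp10.

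Rem2, the least abundant of the 6, had 90 and 55 counts in the control libraries against 48 and 76 in the mimic libraries. Its groups overlapped and the log2 fold change was -0.17 (SE 0.30), so at this depth a shift of the size of its error could not be seen. Its SE was larger than that of the other 7 genes.

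Prmt5 had 2748 and 2252 counts in the control libraries against 2802 and 2727 in the mimic libraries, with a log2 fold change of 0.20 (SE 0.11). Haus4, the listed gene farthest from Mmp14, had 849 and 650 counts against 772 and 838, with a log2 fold change of 0.16 (SE 0.12). In both genes the mimic libraries were above the controls in CPM. For Haus4 the TPM of the groups overlapped, at 22.52 and 25.33 in the control libraries against 23.59 and 26.06 in the mimic libraries. The median log2 fold change of the 6 neighbours was 0.04, with 3 values below and 3 above 0, beside -0.01 over all genes tested.

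Ordered by level in the controls (TPM), Mrpl52 came first with 122 ± 2.45 (SD, n = 2 here and in the following), then Oxa1l with 54.7 ± 7.65, Prmt5 with 37.9 ± 0.573 and Lrp10 with 26.7 ± 3.43. Haus4 (23.9 ± 1.99), Mmp14 (14.5 ± 1.56), 5330426L24Rik (6.73 ± 0.495) and Rem2 (1.42 ± 0.325) followed. Lrp10 and Haus4 overlapped in this order and the other neighbours in it did not. With the mimic the order was Mrpl52 (112 ± 4.72), Oxa1l (51.9 ± 1.75), Prmt5 (45.0 ± 2.81), Lrp10 (37.7 ± 5.74) and Haus4 (24.8 ± 1.75), followed by Rem2 (1.29 ± 0.375), 5330426L24Rik (1.05 ± 0.0990) and Mmp14 (0.380 ± 0.297). Mmp14 thus moved from above 5330426L24Rik and Rem2 to the last place. Rem2 and 5330426L24Rik overlapped with the mimic.

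The question whether the neighbourhood followed Mmp14 was then put to genes that were not on the list and were taken by position. Within 500 kb of the Mmp14 start lay 111 further genes, of which 72 were T cell receptor segments, and none of these segments passed the filter. In all, 79 of the 111 had no count in any library and 19 were tested. Of the 19, 1 was lower with the mimic and 0 were higher by the same rule (edgeR's quasi-likelihood test). DESeq2 and edgeR's exact and likelihood-ratio tests also called this 1 gene and no other. At an unadjusted p under 0.05 there were 9 of them in either direction, beside 4250 of all 17155 genes. Their median log2 fold change was -0.01, equal to that of all tested genes, with 10 values below and 9 above 0. Within 200 kb, 8 further genes were tested, with a median of -0.44, 6 below and 2 above 0. Of these 8, 6 had an unadjusted p under 0.05 and 1, the same gene, was called lower. Over the 526 tested genes of chromosome 14 more than 1 Mb away the median was 0.00, with 2 called lower and 4 higher.

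**Figure D2:**
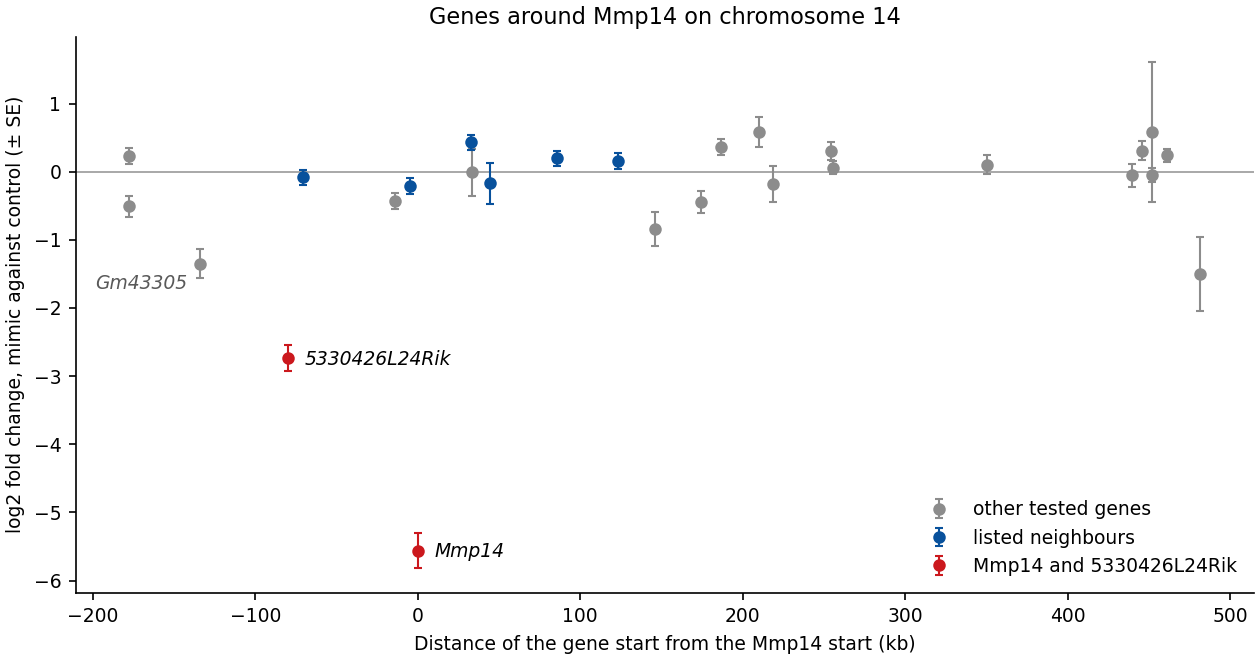
Log2 fold change (mimic against control, bars are ± SE) of every tested gene whose start lies within 500 kb of the Mmp14 start, against the distance of its start from the Mmp14 start in kb. Mmp14 (-5.56) and 5330426L24Rik (-2.74) lie below all other points, the 6 listed neighbours lie between -0.21 and 0.43, and Gm43305 (-1.35) is the called gene among the unlisted ones.

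The gene called lower was Gm43305, annotated as a processed transcript on the minus strand at chr14:54292443-54297456, with its start at -134.2 kb from that of Mmp14, beyond 5330426L24Rik. It had 299537.91 and 181856.26 counts in the control libraries against 73316.3 and 107162.72 in the mimic libraries. Both mimic libraries were below both controls, with a log2 fold change of -1.35 (SE 0.21, adjusted p = 0.0221 by edgeR's quasi-likelihood test). Without mimic replicate 3 the log2 fold change was -1.18 and the adjusted p 0.173, and with limma on TPM the adjusted p was 0.0886 to 0.314. This transcript took 0.786% and 0.574% of all counts in the control libraries but 0.236% and 0.303% in the mimic libraries. Its counts were not whole and 9.10% of its 100-base stretches occurred in 11 other genes, so its value is uncertain. The supplemental methods of the study describe depletion of ribosomal RNA and the labels poly(A) selection.

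Of the unlisted genes between the listed ones, Slc7a7, which encodes the light chain of a cationic amino acid transporter, had 2691.08 and 1791.25 counts in the control libraries against 1477.57 and 1698.09 in the mimic libraries. Its log2 fold change of -0.43 (SE 0.12) did not pass the test (adjusted p = 0.0884, edgeR's quasi-likelihood test). It passed with edgeR's exact and likelihood-ratio tests (adjusted p = 0.0323 and 0.0310) and without control replicate 2 (adjusted p = 0.0139), and its adjusted p over all alternatives ran from 0.0139 to 0.314. Gm10366, the antisense gene at Lrp10, had a log2 fold change of -0.01 (SE 0.35, adjusted p = 0.989), and 23.5% of its 100-base stretches occurred in Lrp10. Slc7a7 starts at -13.8 kb from Mmp14, closer than any other tested gene but Mrpl52. Its difference was in the direction of Mmp14 at a small part of the size.

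Other genes in the window, named after their values were seen, showed both directions, as did all 19 unlisted tested genes, with 10 below and 9 above 0. Slc22a17 was the lowest of the 19 at -1.50 (SE 0.54, adjusted p = 0.150), with 55 and 17 counts in the control libraries against 12 and 12 in the mimic libraries. 4931414P19Rik was at -0.45 (SE 0.16, adjusted p = 0.140). Ajuba, a LIM domain protein of cell junctions, was at -0.84 (SE 0.25, adjusted p = 0.103), and Abhd4, a lipase, at -0.51 (SE 0.16, adjusted p = 0.109). Psmb5, a catalytic subunit of the proteasome, was at 0.36 (SE 0.12, adjusted p = 0.118) and Dad1, a subunit of the oligosaccharyltransferase, at 0.23 (SE 0.12, adjusted p = 0.270). None passed edgeR's quasi-likelihood test, while Ajuba passed with edgeR's exact and likelihood-ratio tests (adjusted p = 0.0447 and 0.0409). Without control replicate 2, 3 unlisted genes within 500 kb were called lower (Ajuba, Slc22a17 and Gm43305) and 1 higher (Gm20521), and without mimic replicate 3 none was called. Gm20521 had 0 and 18.86 counts in the control libraries against 7.27 and 21.3 in the mimic libraries. Its groups overlapped, and without control replicate 2 the only control had 0 counts. Beyond this window and within 1 Mb a further gene was called lower, the cardiac myosin heavy chain gene Myh7. It had 168.33 and 57.88 counts in the control libraries against 9 and 11 in the mimic libraries (log2 fold change -3.40, SE 0.55, adjusted p = 0.0251 by edgeR's quasi-likelihood test).

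**Figure D3:**
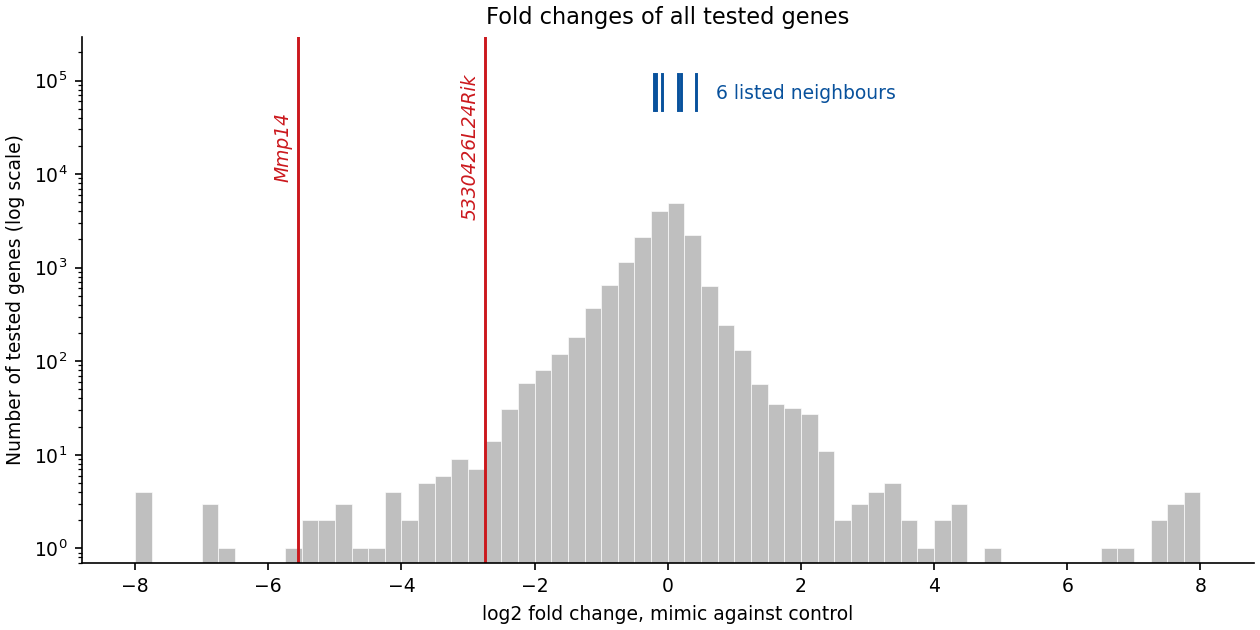
Number of tested genes (log axis) by log2 fold change, mimic against control, in bins over all 17155 genes, with values beyond the axis collected in the end bins. Red lines mark Mmp14 (-5.56) and 5330426L24Rik (-2.74) in the thin lower tail, and the blue ticks of the 6 listed neighbours lie over the centre.

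Genes with the most similar pattern to Mmp14 were sought by the Euclidean distance between log2 CPM (0.1 added), centred over the 4 libraries, among 11524 genes that reached 100 counts in both libraries of whichever group was higher. The 5 nearest were Fras1 at a distance of 1.04, Pdk4 at 1.36, Reg1 at 1.55, Slc40a1 at 2.00 and Tcaf2 at 2.20. None of them is on chromosome 14. In this order they encode an extracellular matrix protein of basement membranes, a kinase that inhibits pyruvate dehydrogenase, a secreted lectin of the regenerating family, the iron exporter ferroportin and a regulator of the TRPM8 channel. 5330426L24Rik stood at 2.76, farther than these 5, and the other listed genes at 5.22 to 5.85. With 4 libraries in 2 groups this distance reflects little beyond the size of the group difference.

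Mmp14 was set beside its own family and the proteins it works with, from lists compiled with earlier results of these data known. Of 22 other matrix metalloproteinase genes, 9 had no count in any library, among them Mmp2, whose product MT1-MMP activates, and 8 were tested. By adjusted p under 0.05 in either direction, which 3.57% of all genes met, 1 of the 8 passed. This was Mmp28, which encodes epilysin, at 1.45 and 1.97 TPM in the control libraries against 0.77 and 0.68 in the mimic libraries. Its log2 fold change was -1.26 (SE 0.25, adjusted p = 0.0448 by edgeR's quasi-likelihood test). It no longer passed when mimic replicate 3 or 4 was left out (adjusted p = 0.0995 and 0.0967), with no filter on low counts (0.0743) or with limma on TPM (0.181 to 0.322). The median of the 8 was -0.44, with 6 below and 2 above 0. By edgeR's quasi-likelihood test 3 of the 8 had an unadjusted p under 0.05, beside 4250 of all 17155 genes. In 4 of the 8 both mimic libraries were below both controls, beside 29.5% of all genes. In 0 both were above, beside 28.9% of all genes.

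Mmp15, another membrane-type metalloproteinase and the most abundant of the 8, was at 11.9 and 9.22 TPM in the control libraries against 7.34 and 10.6 in the mimic libraries. The groups overlapped and the log2 fold change was -0.36 (SE 0.18, adjusted p = 0.254). In the controls Mmp14 was therefore at a level per length like that of Mmp15, and with the mimic it was far below it. Mmp7, the matrilysin of Paneth cells, was at 10.92 and 9.96 TPM against 3.27 and 8.05, with a log2 fold change of -0.96 (SE 0.33, adjusted p = 0.136), and without mimic replicate 4 it passed. Mmp24, another membrane-type member, was at 0.51 and 0.49 TPM against 0.21 and 0.26 (SE of the log2 fold change 0.33, adjusted p = 0.123). Mmp7 and Mmp24 were named after their values were seen.

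Of 9 activators and inhibitors of MMP14, 6 were tested and 0 passed edgeR's quasi-likelihood test at an adjusted p under 0.05, with 2 of the 6 at an unadjusted p under 0.05. These were Pcsk6 (log2 fold change -0.68, SE 0.16, adjusted p = 0.0621) and Pcsk7 (0.50, SE 0.13, adjusted p = 0.0736), proprotein convertases like furin. With DESeq2 and with edgeR's exact and likelihood-ratio tests both passed. Furin, the most abundant, was at 37.83 and 42.05 TPM in the control libraries against 30.23 and 40.74 in the mimic libraries (log2 fold change -0.14, SE 0.10, adjusted p = 0.426). The inhibitors Timp2 and Timp3 were low, at 0.5 to 1.06 and 1.2 to 2.96 TPM, with log2 fold changes of 0.29 (SE 0.34, adjusted p = 0.631) and 0.52 (SE 0.36, adjusted p = 0.398). For Timp3 the control libraries differed from each other, at 2.45 and 1.2 TPM against 2.79 and 2.96 in the mimic libraries. The convertase, inhibitor and metalloproteinase genes are shown beside Mmp14 in the plot of its family.

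**Figure D4:**
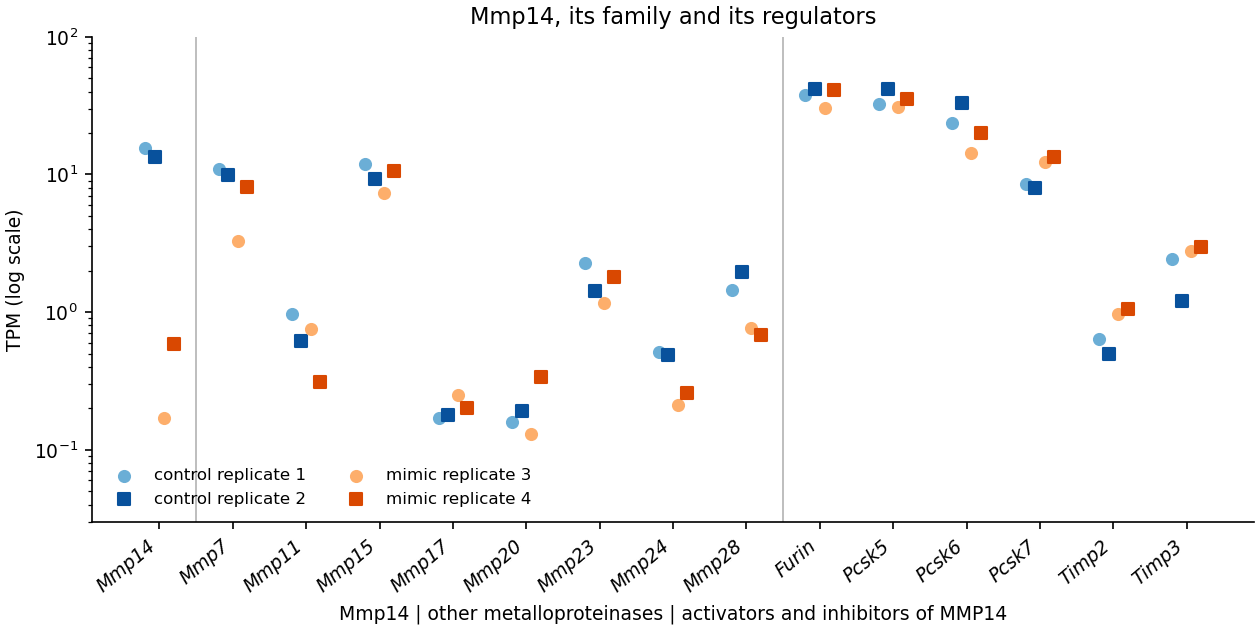
Level in TPM on a log axis of Mmp14, the 8 other tested metalloproteinases and the 6 tested activators and inhibitors, with 1 point per library (blue for mimic control, orange for miR-181a-5p mimic). The gap between the groups at Mmp14, from 15.59 and 13.39 down to 0.17 and 0.59 TPM, is wider than at any other gene shown.

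Of 17 surface partners and substrates of MMP14, 12 were tested, 0 passed edgeR's quasi-likelihood test at an adjusted p under 0.05 and 2 had an unadjusted p under 0.05. With DESeq2, edgeR's exact test and its likelihood-ratio test 1 of the 12 passed. The most abundant was Bsg, the surface protein known as an inducer of metalloproteinases, at 773.95 and 905.32 TPM in the control libraries against 480.94 and 790.98 in the mimic libraries (log2 fold change -0.47, SE 0.19, adjusted p = 0.176). Without mimic replicate 4 Bsg passed. The fibrillar collagens Col1a2 and Col3a1 were at 0 in all libraries and Col1a1 at 0.1 TPM or less. The median of the 12 was -0.02, beside -0.01 over all genes.

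The complexes to which the neighbours belong gave a further comparison. All 8 partners and Sm substrates of PRMT5 had log2 fold changes above 0, from 0.01 to 0.33 with a median of 0.23, and in 7 both mimic libraries were above both controls, as in 28.9% of all genes. Under edgeR's quasi-likelihood test 0 of the 8 had an adjusted p under 0.05 and 4 an unadjusted p under 0.05, which 4250 of all 17155 genes had, and 0 passed with DESeq2, the exact test and the likelihood-ratio test. The most abundant, the core Sm protein gene Snrpd3, was at 78.94 and 91.23 TPM in the control libraries against 116.55 and 104.52 in the mimic libraries (log2 fold change 0.29, SE 0.12, adjusted p = 0.193). The value of Prmt5 itself, 0.20, lay within the range of its partners.

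Of the 7 other augmin subunits, 0 had an adjusted p under 0.05 and 1 an unadjusted p under 0.05 (edgeR's quasi-likelihood test), and 0 passed with DESeq2, the exact test and the likelihood-ratio test. Their median log2 fold change was 0.08, near the 0.16 of Haus4, and the most abundant, Haus8, was at -0.27 (SE 0.14, adjusted p = 0.279). Of 48 other proteins of the large mitochondrial ribosomal subunit, 0 had an adjusted p under 0.05 and 9 an unadjusted p under 0.05. With DESeq2, the exact test and the likelihood-ratio test 1 of them passed, Mrpl18, and without control replicate 2 it was 6. Their median was 0.14, with 34 above and 14 below 0, and Mrpl52 was at -0.21. The most abundant of them, Mrpl30, was at -0.16 (SE 0.09, adjusted p = 0.320).

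Among 7 paralogs of the neighbours, 5 were tested and 1 passed, Lrp12, a receptor of the family of Lrp10. It was at 0.74 and 1.04 TPM in the control libraries against 2.2 and 3.56 in the mimic libraries, a log2 fold change of 1.73 (SE 0.26, adjusted p = 0.0206 by edgeR's quasi-likelihood test). The groups were apart and the direction was that of Lrp10, at a larger size. Its adjusted p was 0.0511 with no filter on low counts and 0.139 to 0.322 with limma on TPM. The most abundant of the 5, the splicing factor gene Rbm39, was at -0.15 (SE 0.11, adjusted p = 0.454), and the RGK family members Rem1, Gem and Rrad did not pass or were too low to be tested.

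The stretches of 250 bases before the RefSeq starts (GRCm38.p6, 5′ to 3′ on the strand of the gene) are given for Mmp14 and 2 neighbours. These are the listed genes on each side, Mrpl52 and Lrp10, whose gene-level fold changes differed from that of Mmp14. Mrpl52 starts 4.70 kb before Mmp14 and Lrp10 32.5 kb after it. The gene-level counts do not tell which start was used. Capitals mark the GC box GGGCGG or its complement CCGCCC, searched on both strands.
Mrpl52, plus strand, chr14:54426659-54426908: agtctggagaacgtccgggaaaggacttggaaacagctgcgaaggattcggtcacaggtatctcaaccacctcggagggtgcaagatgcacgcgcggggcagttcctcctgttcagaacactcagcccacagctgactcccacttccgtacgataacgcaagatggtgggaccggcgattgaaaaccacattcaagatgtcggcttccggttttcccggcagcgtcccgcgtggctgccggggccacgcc
Mmp14, plus strand, chr14:54431348-54431597: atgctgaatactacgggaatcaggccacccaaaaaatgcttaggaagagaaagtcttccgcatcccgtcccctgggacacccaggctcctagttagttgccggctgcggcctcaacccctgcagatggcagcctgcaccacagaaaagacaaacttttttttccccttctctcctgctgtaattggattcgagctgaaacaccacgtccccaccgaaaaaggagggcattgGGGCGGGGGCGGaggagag
Lrp10, plus strand, chr14:54463897-54464146: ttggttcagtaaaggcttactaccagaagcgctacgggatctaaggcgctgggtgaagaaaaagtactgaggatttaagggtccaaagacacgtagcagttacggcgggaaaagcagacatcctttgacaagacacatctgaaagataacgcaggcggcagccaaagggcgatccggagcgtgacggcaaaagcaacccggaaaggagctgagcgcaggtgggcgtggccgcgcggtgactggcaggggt

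The Mmp14 stretch held 2 GC boxes side by side at its 3′ end, while those of Mrpl52 and Lrp10 held none. A GC box stood in 32.7% of 32851 promoter stretches of the same length. GC content was 55.2% for Mmp14, 59.6% for Mrpl52 and 55.6% for Lrp10, beside a median of 52.4% over all stretches. The Mmp14 stretch held 10 CpG dinucleotides, that of Mrpl52 21 and that of Lrp10 18. Among the remaining listed genes with an entry, Rem2 and Haus4 held 1 GC box each and Oxa1l and Prmt5 none. These counts of letters describe the windows and say nothing of which factors bound there.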

How the data were processed

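RNA-seq of 2 mimic control and 2 miR-181a-5p mimic libraries was analysed. Per the study's methods, the authors ran Trimmomatic on single reads of 100 cycles and RSEM against GRCm38. They deposited the expected counts per gene, not normalized, and TPM. The annotation release and the strand setting were not given in the sources used here, and 3 further columns of each table matched no sample and were not used. The deposited expected counts were rounded and then fitted in R 4.3.3 with edgeR 4.0.16 (filterByExpr, TMM, estimateDisp, glmQLFit with legacy = FALSE, glmQLFTest), with Benjamini-Hochberg adjustment over 17155 genes. SE is the size of the log2 fold change over the square root of F. The steps were tested on simulated data. With 2 libraries per group an exact permutation test cannot go below p = 0.333, and the spread between replicates sets the precision, beside depth for genes with few counts.

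Coordinates of 55141 of 55487 genes came from GENCODE release M21 (GRCm38). Symbols came from a reference list of gene names, with the GENCODE name where that list had none. The miRNA and promoter sequences came from RefSeq, which gave promoters for 7 of the 8 genes. The members and lists were chosen with earlier results of these data known. Genes named are the members, unlisted tested genes within 500 kb of the Mmp14 start that were called or lay between members, the 5 most like Mmp14, and of each list those with an adjusted p under 0.05 and the most abundant by TPM. Other names were chosen after their values were seen. The values of 1 gene of the lists are not reported here. The alternatives were DESeq2 1.42.0, edgeR's exact and likelihood-ratio tests, RLE or no factors, other filters, limma 3.58.1 on log2(TPM + 1) and log2(TPM + 0.1), windows of 200 kb and 1 Mb, and leaving out each library. The legacy form of the quasi-likelihood fit was added after seeing the data. Plots used matplotlib 3.10.9.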

Additional observations from a re-analysis of the deposited data

How the results depend on the processing

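The list was chosen on Mmp14 and 5330426L24Rik, so their values under the alternatives are a description and no support. With limma on log2(TPM + 1) without a filter 0 listed genes were past the call rule on the lower side, while 3960 genes had an unadjusted p under 0.05, and in the other 14 alternatives the number was 2 as in the report. No listed gene was called higher in any alternative. The highest log2 fold change among them was 0.54, of Lrp10, short of the 2-fold change that the rule asks for. The absence of higher calls therefore follows from the threshold. The log2 fold change of Mmp14 ran from -6.12 to -3.50 and that of 5330426L24Rik from -2.82 to -1.91 over the 15 alternatives, the values nearest 0 being those on log2(TPM + 1), where the pseudocount understates changes of low genes. The values of Oxa1l (-0.18 to 0.04) and Rem2 (-0.43 to 0.05) changed sign among them, and those of Mrpl52, Lrp10, Prmt5 and Haus4 did not.

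Of unlisted genes, the number lower within 1 Mb was 2 and within 500 kb it was 0 in each of the 3 limma fits on TPM. Leaving out 1 library gave 0 to 3 lower (0 without mimic replicate 3, 3 without control replicate 2) and 0 to 1 higher (1 without control replicate 2). Over all genes, the number called higher and lower was 101 and 253. It was 200 and 530 with the exact test, 214 and 559 with the likelihood-ratio test, and 50 and 108 with no filter on low counts. On TPM it was 11 and 16 with 0.1 added, 30 and 41 with 1 added, and 2 and 0 without a filter. Leaving out 1 library gave 115 to 230 higher and 166 to 661 lower, with 166 lower without mimic replicate 3, 384 without mimic replicate 4, and 230 higher and 661 lower without control replicate 2. The cause was not tested. In these fits the lone library of a group was assumed to vary like the other group. No paired analysis was possible because the groups share no replicate numbers. Depth limits Rem2 and, in the mimic libraries, Mmp14, at 11 and 24 counts.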
